A study of Mus musculus with 3 samples.

Results

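Histones are the proteins around which DNA is wound, and the 49 genes described here are all those of the array whose names mark them as histone genes (names beginning with Hist and a cluster number, H1f, H2af or H3f). They were chosen by name, with no measured value in the rule, out of 19712 named genes, and they were represented by 69 probes. Earlier results of these data were known when the rule was set. By name, 33 were replication-dependent histone genes, which comprised 5 of linker histone H1, 10 of H2A, 9 of H2B, 3 of H3 and 6 of H4. A further 11 were variant histones, with 2 of H1, 7 of H2A and 2 of H3, and 5 were histones of germ cells. The reference table of mouse genes held all 49 and listed H2afy3, Hist1h2al and Hist3h2bb as transcribed pseudogenes.

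The study set blood-forming and non-blood-forming organs of C57BL/6 mice beside each other, with 1 sample of total RNA and 1 one-colour expression array for each of bone marrow, adult liver and fetal liver. Adult liver was taken at 12 weeks of age and fetal liver at gestation day 13.5. For the bone marrow the labels do not settle whether that adult age applies, and they give neither sex nor the number of animals for any of the 3 tissues. No genotype other than the strain, and no treatment, is named. With 1 array per tissue there were no replicates, so no test, standard deviation or p-value can be given, and each difference describes these 3 RNA samples. Signals are given as scaled signals, the processed intensity of a probe divided by the 75th percentile of all gene spots of its array, which was 894.5 in bone marrow, 296.5 in adult liver and 386.0 in fetal liver. A difference was called when it reached 4-fold. Where a probe was not well above background in 1 tissue, the fold is a lower bound against the lowest scaled signal well above background of that array or the probe's own, whichever was higher, and is written "at least". Those lowest scaled signals were 0.0265 in bone marrow, 0.0637 in adult liver and 0.0389 in fetal liver. The share of gene spots well above background was 58.8% in bone marrow, 52.6% in adult liver and 58.7% in fetal liver.

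Replication-dependent histone genes supply the bulk of new histone while a cell copies its DNA. They lie in clusters, carry no introns, and their mRNAs end in a stem-loop in place of a poly(A) tail. Variant histones are made throughout the cell cycle from ordinary, mostly polyadenylated mRNAs and mark special chromatin, such as sites of DNA breaks (H2A.X), promoters (H2A.Z) or silent regions (macroH2A). The labelling kit named in the labels starts cDNA from an oligo(dT) primer, so signals of stem-loop mRNAs depend on how such RNA was primed, which was not tested here. Members of 1 family are also close relatives in sequence and can share signal on a probe.

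To show what the members have at their starts, the 150 bases before the transcription start are printed for the 5 replication-dependent H1 genes, which include both the histone gene furthest apart between the livers (Hist1h1b) and one within 1.3-fold on all 3 arrays (Hist1h1c), for the H1 variant H1f0, and for 1 gene each of H2A, H2B and H4 and the variants H2A.Z and H3.3. They were read 5′ to 3′ from RefSeq promoters of build GRCm38.p6. Capitals mark CCAAT boxes, the TATA-box letters TATAAA, the octamer ATTTGCAT and the H1 box AAACACA, each on either strand, and no one of these motifs contains another.
Hist1h1a: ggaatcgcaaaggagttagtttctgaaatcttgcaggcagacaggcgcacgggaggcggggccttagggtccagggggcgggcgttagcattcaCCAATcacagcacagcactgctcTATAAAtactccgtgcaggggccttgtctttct
Hist1h1b: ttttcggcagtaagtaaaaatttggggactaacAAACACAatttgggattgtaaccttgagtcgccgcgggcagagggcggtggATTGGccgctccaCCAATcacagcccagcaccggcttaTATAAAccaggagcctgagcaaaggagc
Hist1h1c: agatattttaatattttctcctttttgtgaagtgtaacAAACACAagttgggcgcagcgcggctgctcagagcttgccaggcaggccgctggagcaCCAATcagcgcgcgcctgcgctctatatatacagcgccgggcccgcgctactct
Hist1h1d: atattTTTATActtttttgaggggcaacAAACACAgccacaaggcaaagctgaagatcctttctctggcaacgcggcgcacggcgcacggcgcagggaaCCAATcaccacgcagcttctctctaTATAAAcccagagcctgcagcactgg
Hist1h1e: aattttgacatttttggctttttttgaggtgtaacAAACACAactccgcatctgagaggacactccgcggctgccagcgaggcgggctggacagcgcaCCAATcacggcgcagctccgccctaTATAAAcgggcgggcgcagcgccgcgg
H1f0: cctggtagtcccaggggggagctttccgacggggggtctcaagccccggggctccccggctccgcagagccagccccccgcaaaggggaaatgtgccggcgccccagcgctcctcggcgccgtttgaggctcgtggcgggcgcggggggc
Hist1h2ab: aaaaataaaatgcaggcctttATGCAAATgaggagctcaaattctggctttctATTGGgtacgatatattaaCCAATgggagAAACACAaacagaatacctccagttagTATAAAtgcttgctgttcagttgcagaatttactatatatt
Hist1h2bm: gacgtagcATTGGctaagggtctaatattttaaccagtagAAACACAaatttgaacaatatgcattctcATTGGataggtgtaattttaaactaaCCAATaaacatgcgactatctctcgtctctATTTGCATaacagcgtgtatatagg
Hist1h4d: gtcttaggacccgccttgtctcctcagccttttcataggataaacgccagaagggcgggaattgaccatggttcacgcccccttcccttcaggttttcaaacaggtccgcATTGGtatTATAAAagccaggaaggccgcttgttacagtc
H2afz: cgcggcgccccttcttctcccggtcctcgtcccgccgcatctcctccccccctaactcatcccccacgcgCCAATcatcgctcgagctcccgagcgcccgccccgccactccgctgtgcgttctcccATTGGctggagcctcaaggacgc
H3f3b: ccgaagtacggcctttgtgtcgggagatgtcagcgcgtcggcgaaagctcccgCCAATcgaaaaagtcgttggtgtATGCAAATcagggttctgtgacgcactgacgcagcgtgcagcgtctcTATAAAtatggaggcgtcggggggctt
The windows lie at chr13:23763518-23763667 (plus strand, Hist1h1a), chr13:21780626-21780775 (minus, Hist1h1b), chr13:23738657-23738806 (plus, Hist1h1c), chr13:23554882-23555031 (plus, Hist1h1d), chr13:23622559-23622708 (minus, Hist1h1e), chr15:79028062-79028211 (plus, H1f0), chr13:23750938-23751087 (plus, Hist1h2ab), chr13:21721894-21722043 (plus, Hist1h2bm), chr13:23581418-23581567 (plus, Hist1h4d), chr3:137864337-137864486 (plus, H2afz) and chr11:116024505-116024654 (minus, H3f3b), all in GRCm38.p6. In the H1 genes the CCAAT box stood at nearly the same place, beginning 56 bases before the start in Hist1h1a, 53 in Hist1h1b, 54 in Hist1h1c, 51 in Hist1h1d and 52 in Hist1h1e, and Hist1h1b held a second one at 66. The H1 box began 117 bases before the start in Hist1h1b, 112 in Hist1h1c, 122 in Hist1h1d and 115 in Hist1h1e, and Hist1h1a had no match. Hist1h1c differed from the other replication-dependent H1 genes in having no TATAAA in this window, and H1f0 held none of these motifs.

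Over the 200 bases before the start, a promoter was in the table for 41 of the 49 members. CCAAT was found for 23 of 27 replication-dependent genes (85.2%), against 5 of 9 variants (55.6%) and 29.7% of all 27025 promoters. TATAAA was found for 13 of the 27 (48.1%), 1 of 9 variants and 10.5% of all promoters. The octamer, the site of the factor Oct-1, was found for 9 of the 27 (33.3%) and 1.40% of all promoters, and these 9 were 5 of 9 H2A and 4 of 6 H2B genes. Among the variants only H3f3b held it. The H1 box was found for 4 of 5 H1 genes, for 6 of the 27 in all (22.2%) and for 4.89% of all promoters. Of the 5 germ cell genes, 4 held CCAAT, 2 TATAAA, 2 the octamer and 2 the H1 box. A match describes the letters in this window and no binding was measured.

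With the arrays scaled to their 75th percentile, histone signal was close between the blood-forming tissues and lower in adult liver. Between adult and fetal liver, 23 of 44 histone genes compared were at least 4-fold lower in adult liver, where 12.1% of all genes were, and 1 was at least 4-fold higher, where 14.1% of all genes were. The median difference was -2.89 on the log2 scale for the histone genes and -0.06 for all genes. Between bone marrow and adult liver, 25 of 44 were at least 4-fold higher in bone marrow, where 15.0% of all genes were, and 1 was lower, where 18.8% were. The medians were 2.18 for the histone genes and -0.09 for all genes. Between bone marrow and fetal liver, 0 of 46 were at least 4-fold higher in bone marrow, where 8.30% of all genes were, and 1 was lower, where 9.33% were. The medians there were -0.26 for the histone genes and -0.26 for all genes. These comparisons share arrays and are not independent of each other. In whole tissue, fewer cells of a type and less RNA per cell cannot be told apart.

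Replication-dependent genes had larger median differences than variants in both comparisons with adult liver. In adult liver over fetal liver, 18 of 30 replication-dependent genes were at least 4-fold lower and 1 higher, with a median of -3.45, and 4 of 10 variants were lower, with a median of -1.29. In bone marrow over adult liver, 20 of 30 replication-dependent genes were higher and 1 lower, with a median of 2.79, and 4 of 10 variants were higher, with a median of 1.1. Between bone marrow and fetal liver none of 32 replication-dependent genes and 1 of 10 variants reached 4-fold, with medians of -0.25 and 0.03. That variant was lower in bone marrow, and 1 of 10 is near the 9.33% of all genes that were lower there. In adult liver over fetal liver 12.1% of all genes were lower and 14.1% higher. In bone marrow over adult liver 15.0% were higher and 18.8% lower. Genes of a class are not replicates of a tissue, so the contrast of the classes has no test. Of the 37 histone genes well above background on all 3 arrays, 29 had their lowest scaled signal in adult liver, 8 in bone marrow and 0 in fetal liver. With the arrays scaled to spike-in RNA instead, every gene moved by 2.37 in bone marrow over fetal liver, and 26 of 45 histone genes were then at least 4-fold higher in bone marrow, close to the 55.8% of all genes that were.

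**Figure D1:**
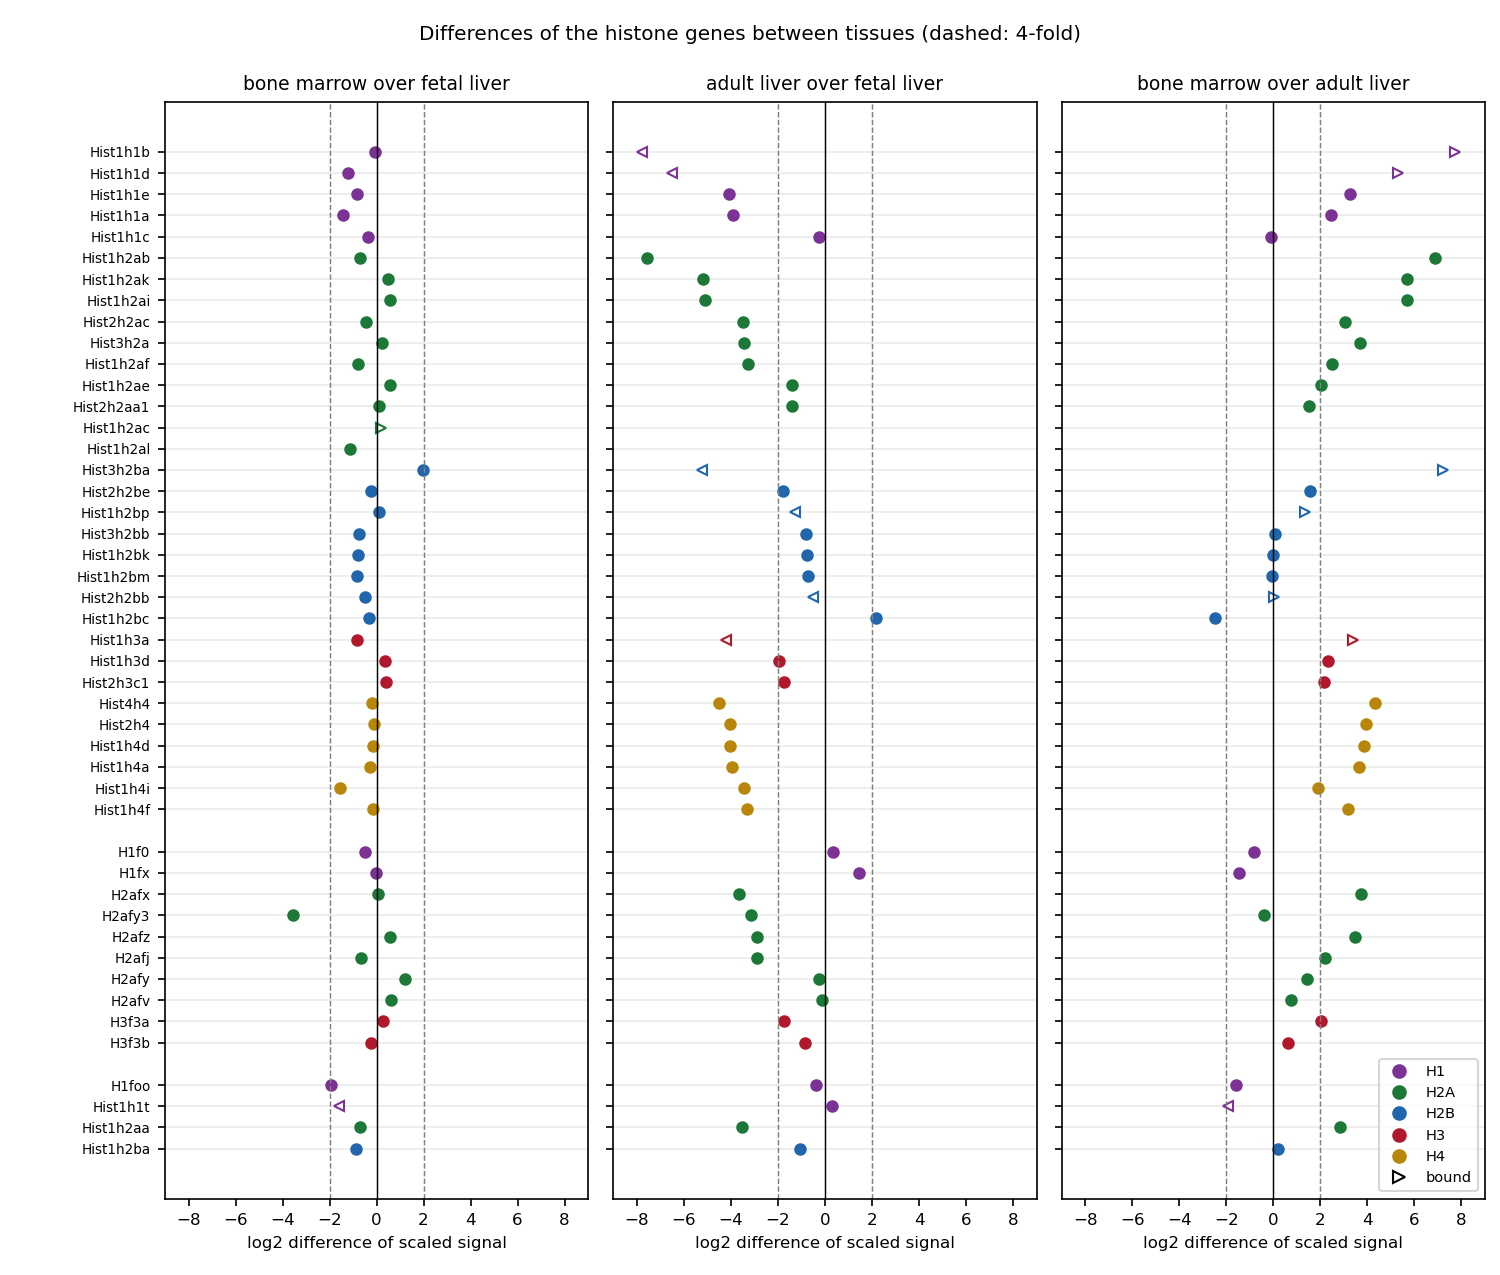
Log2 difference of the scaled signal (x axis) for each histone gene compared (rows; replication-dependent at the top, then variants, then germ cell histones) in bone marrow over fetal liver, adult liver over fetal liver and bone marrow over adult liver. Colours mark the histone family, open triangles are bounds, and dashed lines stand at 4-fold; 23 genes lie beyond the left line in the middle panel and 25 beyond the right line in the right panel.

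Linker histone H1 binds the DNA between nucleosomes. Hist1h1b, the gene of H1.5 (probe at chr13:21871923-21871982, mm9), had a scaled signal of 13.6 in bone marrow, 0.0594 in adult liver, which was not well above background, and 14.2 in fetal liver. It was at least 223-fold lower in adult than in fetal liver and at least 214-fold higher in bone marrow than in adult liver. Hist1h1d, which encodes H1.3, had 2.55, a dim 0.0651 and 5.85 in bone marrow, adult liver and fetal liver. It was at least 89.9-fold lower in adult than in fetal liver on this probe. The other Hist1h1d probe had 0.0648 in bone marrow, a dim 0.0223 in adult liver and 0.183 in fetal liver. That probe was at least 2.87-fold lower in adult than in fetal liver and was not called in any comparison. Hist1h1e, which encodes H1.4, had 19.3 in bone marrow, 2.05 in adult liver and 34.5 in fetal liver, so that adult liver was 16.8-fold below fetal liver. Hist1h1a, which encodes H1.1, had 1.26 in bone marrow, 0.230 in adult liver and 3.42 in fetal liver, with adult liver 14.9-fold below fetal liver. The fifth gene went otherwise. Hist1h1c, which encodes H1.2, had 12.3 in bone marrow, 13.2 in adult liver and 15.8 in fetal liver, a spread of 1.28-fold at most, so it alone of the 5 was not called in any comparison.

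H2A pairs with H2B in the nucleosome core. Of 8 replication-dependent H2A genes compared between the livers, 6 were lower in adult liver (median 11.1-fold), where 12.1% of all genes were. In bone marrow over adult liver 7 of 8 were higher, where 15.0% of all genes were. Hist1h2ab had 16.1 in bone marrow, 0.137 in adult liver and 26.4 in fetal liver. Adult liver was 193-fold below fetal liver and bone marrow 118-fold above adult liver, the widest differences among members measured on both sides. Hist1h2ak had 45.7 in bone marrow, 0.897 in adult liver and 32.9 in fetal liver, and Hist1h2ai 25.6, 0.499 and 17.3. Adult liver was 36.7-fold below fetal liver for Hist1h2ak and 34.7-fold for Hist1h2ai. Hist3h2a, which lies apart on chromosome 11, had 168 in bone marrow, 13.1 in adult liver and 142 in fetal liver, 10.9-fold lower in adult than in fetal liver.

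Of the other H2A genes, 2 more were called between the livers. Hist2h2ac had 361 in bone marrow, 43.2 in adult liver and 490 in fetal liver, and was 11.3-fold lower in adult than in fetal liver. This probe lies at chr3:96049751-96049810 (mm9), close to the Hist2h2aa1 probe at chr3:96049502-96049561. The other Hist2h2ac probe, at chr3:96024468-96024524, gave 321 in bone marrow, 41.5 in adult liver and 448 in fetal liver. Which gene the bright signal comes from was not tested. Hist1h2af had 353 in bone marrow, 62.1 in adult liver and 606 in fetal liver, and was 9.77-fold lower. Hist2h2aa1 had 3.76 in bone marrow, 1.33 in adult liver and 3.47 in fetal liver, and its 2.62-fold difference between the livers was below the threshold. Hist1h2ae, with 0.398 in bone marrow, 0.0992 in adult liver and 0.264 in fetal liver, was 4.01-fold higher in bone marrow than in adult liver, at the threshold. Hist1h2ac was well above background in bone marrow only (0.0446, against a dim 0.0170 in adult liver and a dim 0.0128 in fetal liver). Hist1h2al, whose probe lies on chromosome 13 outside the main cluster, was near background throughout, at 0.0286 in bone marrow, a dim 0.0492 in adult liver and 0.0632 in fetal liver.

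Of the 8 H2B genes compared between the livers, 1 was lower in adult liver and 1 was higher (12.5% each). These are near the shares of all genes, 12.1% lower and 14.1% higher. Hist1h2bc had 6.34 in bone marrow, 35.4 in adult liver and 7.90 in fetal liver. It was 4.48-fold higher in adult than in fetal liver and 5.59-fold lower in bone marrow than in adult liver, and no other replication-dependent gene was called in those directions. Hist3h2ba went the other way, with 9.54 in bone marrow, a dim 0.0536 in adult liver and 2.42 in fetal liver. It was at least 38.0-fold lower in adult than in fetal liver, and its 3.93-fold excess in bone marrow over fetal liver came just below the threshold. Hist1h2bk had 15.2 in bone marrow, 15.4 in adult liver and 26.4 in fetal liver. Hist1h2bm had 15.4 in bone marrow, 16.3 in adult liver and 27.2 in fetal liver. Hist3h2bb had 16.8 in bone marrow, 16.1 in adult liver and 27.7 in fetal liver. These 3 probes gave nearly the same values in every tissue and none was called. Hist2h2be, at 1.61 in bone marrow, 0.546 in adult liver and 1.88 in fetal liver, differed by 3.44-fold between the livers. Hist1h2bp and Hist2h2bb were dim in adult liver and not called, and Hist1h2be was dim on all 3 arrays.

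H3 and H4 form the tetramer at the centre of the nucleosome. Among the 3 H3 genes, Hist2h3c1 had 78.5 in bone marrow, 17.5 in adult liver and 59.3 in fetal liver, and Hist1h3d had 52.8, 10.4 and 40.9. Both were higher in bone marrow than in adult liver, by 4.48-fold for Hist2h3c1 and 5.06-fold for Hist1h3d. Their differences between the livers, 3.39-fold and 3.93-fold, fell short of 4-fold. Hist1h3a had 0.712 in bone marrow, a dim 0.0678 in adult liver and 1.27 in fetal liver, and was at least 18.7-fold lower in adult than in fetal liver.

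All 6 H4 genes were lower in adult than in fetal liver, where 12.1% of all genes were. Their median was 15.8-fold, with a range on the log2 scale from -4.53 to -3.32. Hist1h4f had 159 in bone marrow, 17.7 in adult liver and 177 in fetal liver, the smallest difference at 9.99-fold. Hist1h4d had 99.9 in bone marrow, 6.91 in adult liver and 112 in fetal liver, 16.3-fold lower in adult than in fetal liver. Hist2h4 had 64.6 in bone marrow, 4.22 in adult liver and 69.4 in fetal liver. Adult liver was 16.5-fold below fetal liver for this gene of the chromosome 3 cluster. Hist1h4a had 34.4 in bone marrow, 2.73 in adult liver and 42.0 in fetal liver, 15.4-fold lower in adult than in fetal liver. Hist4h4, the single replication-dependent gene on chromosome 6, had 13.2 in bone marrow, 0.654 in adult liver and 15.1 in fetal liver, and was the furthest apart at 23.0-fold. Hist1h4i had 10.5 in bone marrow, 2.83 in adult liver and 31.1 in fetal liver, and its 3.71-fold difference between bone marrow and adult liver left it as the only H4 gene not called there.

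**Figure D2:**
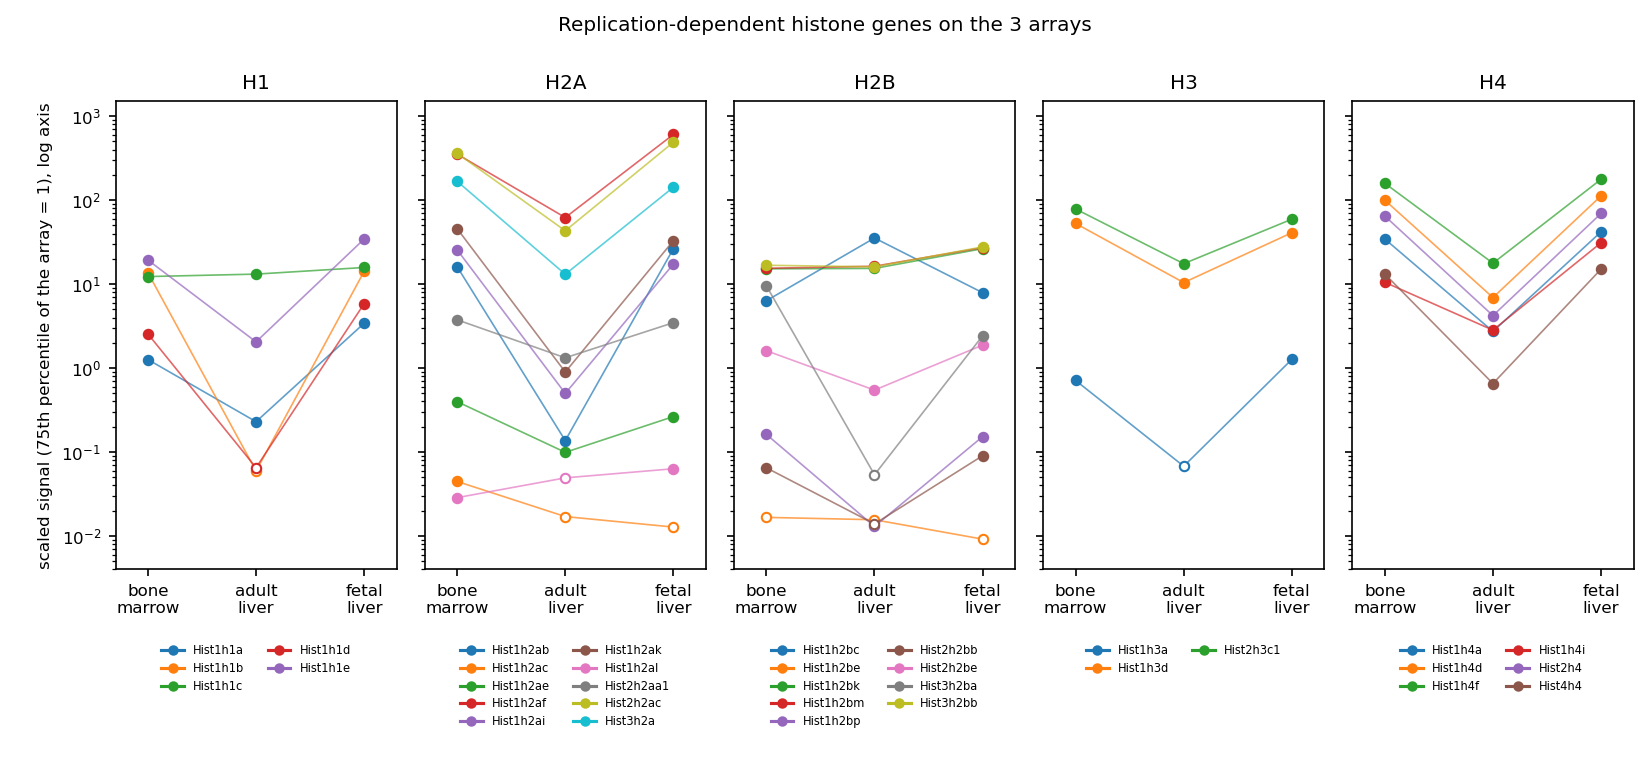
Scaled signal (log axis, 75th percentile of the array at 1) of the 33 replication-dependent histone genes in bone marrow, adult liver and fetal liver, 1 array each, by family. Each line is 1 gene and open points are probes not well above background; all 6 H4 lines dip in adult liver, while Hist1h2bc peaks there at 35.4.

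Calls were spread over the clusters. Of all genes, 12.1% were lower and 14.1% higher in adult than in fetal liver. On chromosome 13, which held 23 of the replication-dependent genes, 13 of 20 compared were lower in adult than in fetal liver and 1 was higher. On chromosome 3, 2 of 6 were lower, and on chromosome 11, 2 of 3. The lone replication-dependent gene of chromosome 6, Hist4h4, was lower too.

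Variants divided into those that followed the replication-dependent genes and those that did not. H2afx encodes H2A.X, which is phosphorylated at DNA breaks, and had 80.0 in bone marrow, 6.04 in adult liver and 75.6 in fetal liver. Adult liver was 12.5-fold below fetal liver and bone marrow 13.3-fold above adult liver. H2afz, which encodes H2A.Z.1 (probe at chr3:137529371-137529430, mm9), had 160 in bone marrow, 14.5 in adult liver and 108 in fetal liver. It was 7.47-fold lower in adult than in fetal liver. By contrast H2afv, the gene of the sister protein H2A.Z.2, had 107 in bone marrow, 63.4 in adult liver and 70.2 in fetal liver and was within 1.7-fold everywhere. H2afj had 395 in bone marrow, 86.3 in adult liver and 632 in fetal liver, and was 7.32-fold lower in adult than in fetal liver.

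H3.3 is the replacement H3 that can be deposited outside replication, and it is encoded by 2 genes. H3f3a had 148 in bone marrow, 36.8 in adult liver and 121.5 in fetal liver, and was 4.01-fold higher in bone marrow than in adult liver, at the threshold. H3f3b had 82.3 in bone marrow, 53.6 in adult liver and 97.2 in fetal liver, and was not called. On this probe its differences stayed within 1.9-fold. Another H3f3b probe, with 98.5 in bone marrow, 32.3 in adult liver and 76.2 in fetal liver, was also not called. It was 3.05-fold higher in bone marrow than in adult liver and 2.36-fold lower in adult than in fetal liver. The remaining, dimmer probe had 0.322 in bone marrow, 0.230 in adult liver and 0.316 in fetal liver, a difference of 1.40-fold at most.

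MacroH2A carries a large extra domain and is linked to silent chromatin. H2afy, the gene of macroH2A1, had 14.4 in bone marrow, 5.30 in adult liver and 6.30 in fetal liver, 2.29-fold more in bone marrow than in fetal liver and below the threshold. H2afy3, listed as a transcribed pseudogene, had 0.385 in bone marrow, 0.506 in adult liver and 4.48 in fetal liver. It was 11.7-fold lower in bone marrow than in fetal liver, the only histone name called between the blood-forming tissues, and 8.86-fold lower in adult than in fetal liver. H2afy2, the gene of macroH2A2, was dim on all 3 arrays.

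On the probes used and at the main scaling, the H1 variants had their highest signals in adult liver, though neither was called. H1f0 encodes H1.0, known for building up in cells that have stopped dividing, and had 1.49 in bone marrow, 2.62 in adult liver and 2.08 in fetal liver. H1fx had 112 in bone marrow, 305 in adult liver and 113 in fetal liver on a probe for which the files give no genome position, 2.70-fold more in adult than in fetal liver. Its other probe, which has a position, was far dimmer, at 0.0836 in bone marrow, 0.153 in adult liver and 0.180 in fetal liver. With spike-in scaling both genes were higher in bone marrow than in adult liver, by 2.085 for H1f0 and 1.46 for H1fx (log2). Adult over fetal liver then gave -0.20 for H1f0 and 0.90 for H1fx.

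Among the germ cell histones, H1fnt was dim on all 3 arrays, and H1foo and Hist1h1t had low signals with no call. H1foo, the oocyte linker histone, had 0.152 in bone marrow, 0.455 in adult liver and 0.585 in fetal liver. Hist1h1t, the testis H1, had a dim 0.0259 in bone marrow, 0.101 in adult liver and 0.0811 in fetal liver. Hist1h2ba, a testis H2B, had 9.84 in bone marrow, 8.67 in adult liver and 18.2 in fetal liver. Hist1h2aa, a testis H2A, gave 446 in bone marrow, 63.1 in adult liver and 731 in fetal liver, and was 11.6-fold lower in adult than in fetal liver. Its values lay near those of the Hist1h2af, Hist2h2ac and H2afj probes in each tissue. The germ cell markers Dazl, Sycp1, Sycp3 and Zpbp were dim on all 3 arrays, and the other 4 of the 8 differed by less than 4-fold. The files used here hold no probe sequences, so whether these H2A probes catch the same RNAs was not tested.

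**Figure D3:**
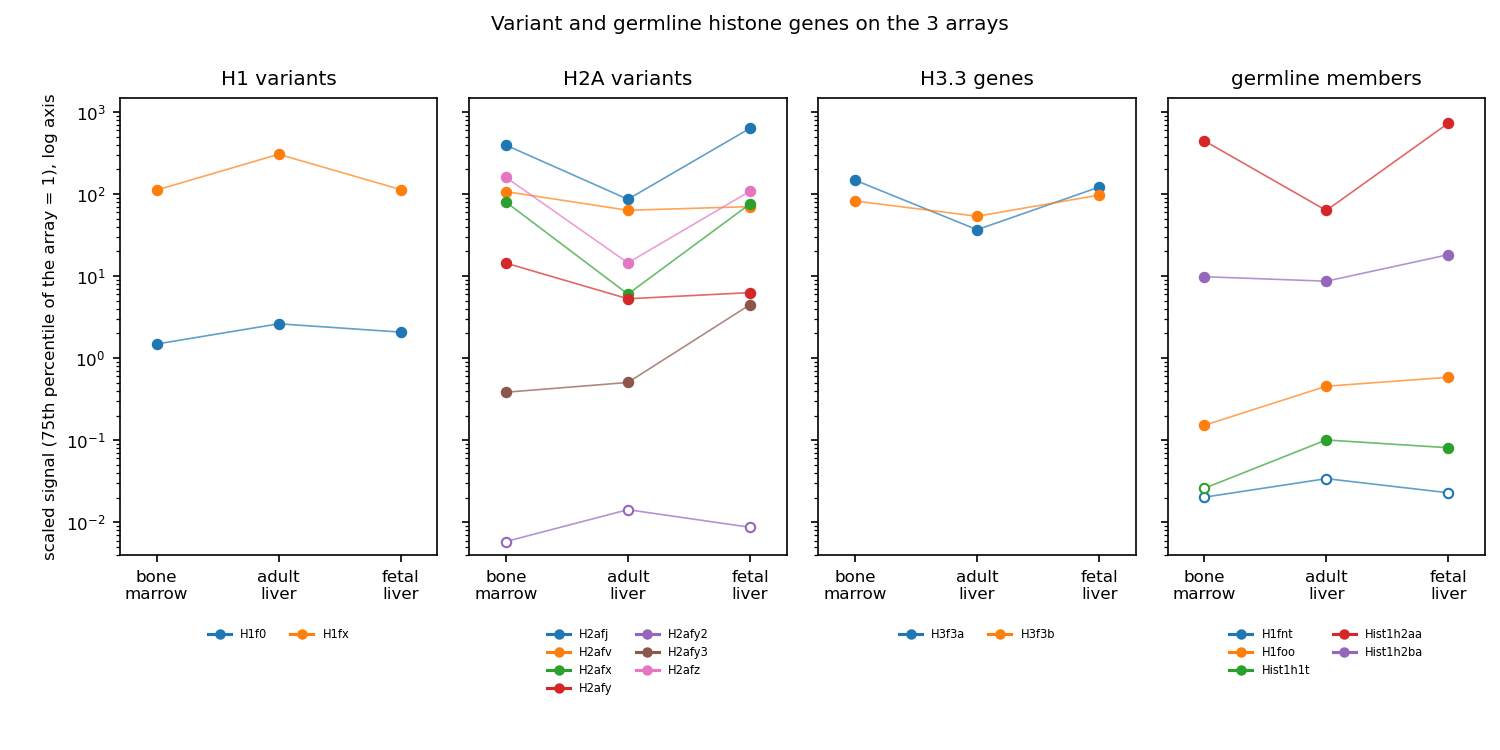
Scaled signal (log axis, 75th percentile of the array at 1) of the variant and germ cell histone genes in bone marrow, adult liver and fetal liver, 1 array each. Open points are probes not well above background; H2afx stands at 6.04 in adult liver and H2afv at 63.4, and H2afy3 is highest in fetal liver at 4.48.

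Of the 49 genes, 16 had more than 1 probe, and no gene had probes called in opposite directions. In bone marrow over fetal liver, sizes differed most for H3f3a. The probe used for H3f3a gave a log2 difference of 0.28 there, and its other probes gave 2.58 and 2.62, past the threshold. The probe used lies at chr1:182732777-182732836 and the first of the others beside it at chr1:182732699-182732728 (mm9). In bone marrow over adult liver the H3f3a probes gave 2.01, 4.59 and 4.55. The second probe of H2afy had 8.37 in bone marrow, 1.72 in adult liver and 1.45 in fetal liver. Its log2 difference in bone marrow over fetal liver was 2.53, past the threshold, against 1.20 for the probe used. The second probe of H2afj had 1.5 in bone marrow, 0.965 in adult liver and 3.19 in fetal liver, a log2 difference of -1.72 between the livers where the probe used gave -2.87. The second probe of Hist1h2af gave -4.79 where the first gave -3.29, and that of Hist3h2a gave -1.48 where the first gave -3.44. Between the livers the probes differed in sign for H1fx, at 1.43 and -0.24, and for H2afy, at -0.25 and 0.25.

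**Figure D4:**
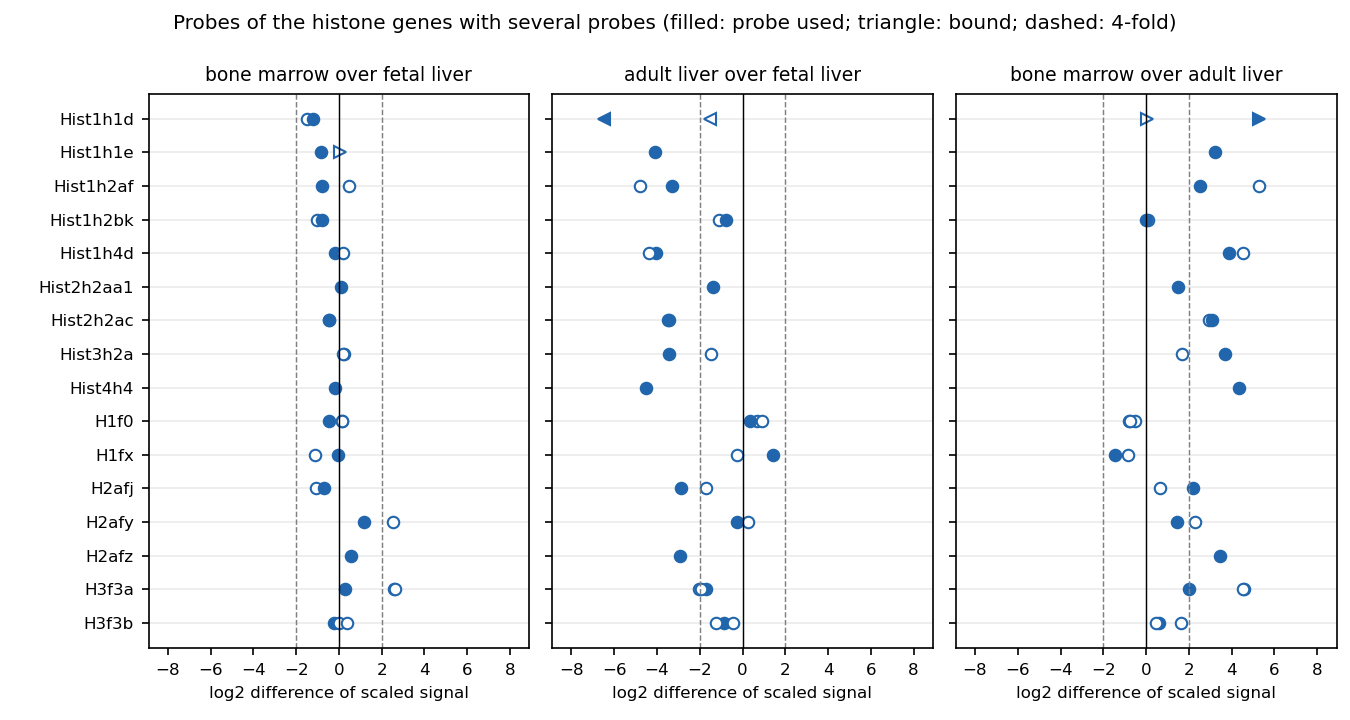
Log2 difference of the scaled signal (x axis) for every probe compared of the 16 histone genes with several probes (rows) in bone marrow over fetal liver, adult liver over fetal liver and bone marrow over adult liver. Filled points are the probes used, open points the others, triangles bounds, and dashed lines stand at 4-fold; the H3f3a probes lie between 0.28 and 2.62 in the left panel.

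Genes that make, carry and use histones were counted beside them. Of all genes, 12.1% were lower and 14.1% higher in adult than in fetal liver. In bone marrow over adult liver 15.0% were higher and 18.8% lower, and in bone marrow over fetal liver 8.30% and 9.33%. Of 16 genes that start or process histone mRNA, 6 were lower and 1 higher in adult than in fetal liver, with a median of 2.69-fold, and 6 were higher and 1 lower in bone marrow than in adult liver. None was called in bone marrow over fetal liver. Slbp, which binds the stem-loop, had 25.8 in bone marrow, 2.73 in adult liver and 32.1 in fetal liver, 11.8-fold lower in adult than in fetal liver. Casp8ap2, the FLASH protein of the histone locus body, had 1.62 in bone marrow, 0.205 in adult liver and 1.59 in fetal liver, 7.74-fold lower. The polyadenylation factor gene Cstf2 was 7.13-fold lower and Npat, the activator of histone gene transcription, 5.94-fold lower in adult than in fetal liver. The exception was Zfp473, a zinc finger protein of histone pre-mRNA processing, with 0.0579 in bone marrow, 0.553 in adult liver and 0.124 in fetal liver, 4.45-fold higher in adult than in fetal liver. Upf1, an RNA helicase that takes part in histone mRNA decay, had 2.08 in bone marrow, 3.11 in adult liver and 5.91 in fetal liver and was not called.

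Of 26 histone chaperone and deposition genes compared between the livers, 13 were lower in adult liver and 0 higher (median 3.94-fold). The shares of all genes were 12.1% and 14.1%. Bone marrow was higher than adult liver for 11 of 27 (median 2.53-fold), where 15.0% of all genes were. It was higher than fetal liver for 1 of 27, where 8.30% of all genes were. Asf1b, which hands H3 and H4 to the assembly machinery, had 25.0 in bone marrow, 0.341 in adult liver and 19.4 in fetal liver, 57.0-fold lower in adult than in fetal liver. Subunits of chromatin assembly factor 1, which places histones on new DNA, followed with 38.5-fold for Chaf1b and 32.4-fold for Chaf1a. Hat1, which acetylates new H4, had 7.56 in bone marrow, 0.268 in adult liver and 2.62 in fetal liver, 28.2-fold higher in bone marrow than in adult liver. Hira, which deposits H3.3, was within 1.9-fold in every comparison. The gene called between the blood-forming tissues was Vps72, of an H2A.Z loading complex, with 0.268 in bone marrow, a dim 0.0371 in adult liver and 0.0479 in fetal liver, 5.60-fold higher in bone marrow than in fetal liver. Set, an inhibitor of histone acetylation, had 11.5 in bone marrow, 7.62 in adult liver and 32.1 in fetal liver and was 4.21-fold lower in adult than in fetal liver.

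Of 35 DNA replication genes, 32 were lower in adult than in fetal liver (12.1% of all genes), with a median of 16.5-fold. In bone marrow over adult liver 30 were higher (15.0% of all genes), with a median of 16.2-fold. In bone marrow over fetal liver 0 were called, where 8.30% of all genes were higher and 9.33% lower. Mcm5, of the replicative helicase, had 42.8 in bone marrow, 0.651 in adult liver and 39.6 in fetal liver, 60.9-fold lower in adult than in fetal liver. Mcm6, of the same helicase, had 114 in bone marrow, 3.13 in adult liver and 158 in fetal liver, 50.4-fold lower. Cdc6, which loads the helicase, had 4.59 in bone marrow, a dim 0.0137 in adult liver and 3.94 in fetal liver, at least 61.8-fold lower. Cdc45, Rfc3 and Rrm2 differed most between the blood-forming tissues, by 3.08-fold, 2.63-fold and 2.36-fold, below the threshold. Mcm10 had 13.9 in bone marrow, 41.1 in adult liver and 26.9 in fetal liver and was not called.

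**Figure D5:**
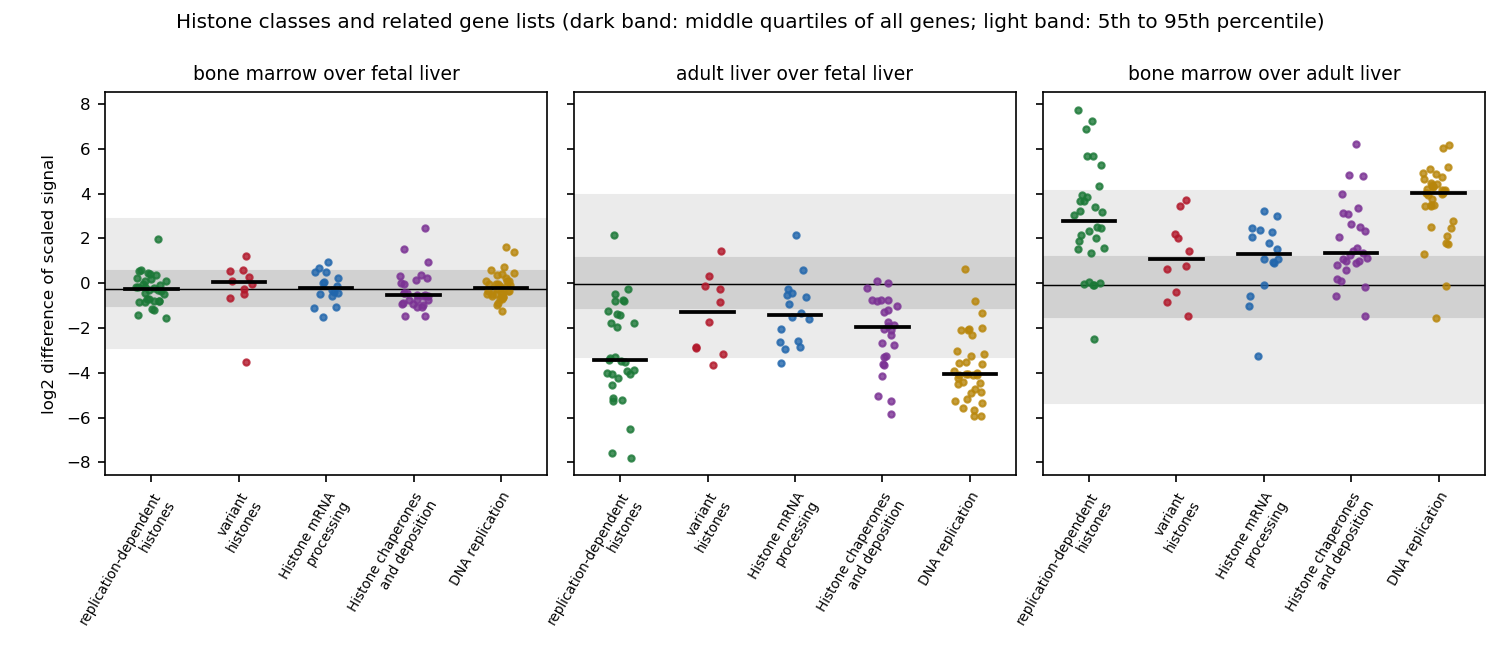
Log2 difference of the scaled signal (y axis) for genes of the replication-dependent and variant histone classes and of 3 related lists, in bone marrow over fetal liver, adult liver over fetal liver and bone marrow over adult liver. Points are genes (bounds at their bound), bars medians, and grey bands the middle quartiles and the 5th to 95th percentiles of all genes compared; between the livers the medians run from -1.29 for variants to -4.05 for DNA replication.

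Markers of the labelled tissues and of the cells they can hold were measured on the same arrays. Of all genes, 14.1% were higher and 12.1% lower in adult than in fetal liver. In bone marrow over fetal liver 8.30% were higher and 9.33% lower. Of 8 hepatocyte genes, 8 were higher in adult than in fetal liver, and 7 of the 8 were dim in bone marrow, where Alb stood at a dim 0.00694, against 988 in adult liver and 176 in fetal liver. The summed scaled signal of 6 erythroid genes was 917 in bone marrow, 109.6 in adult liver and 1476 in fetal liver, and 5 of the 6 were lower in adult than in fetal liver. All 8 neutrophil genes were higher in bone marrow than in fetal liver, with sums of 1868 in bone marrow, 2.87 in adult liver and 147 in fetal liver. Of 8 B-lineage genes 7 were higher in bone marrow than in fetal liver, with sums of 78.3 in bone marrow, 1.44 in adult liver and 1.70 in fetal liver. Of 8 genes of dividing cells, 7 were lower in adult than in fetal liver and 0 were called in bone marrow over fetal liver, with sums of 239 in bone marrow, 2.31 in adult liver and 289 in fetal liver. Mki67, a marker of dividing cells, had 132 in bone marrow, 0.259 in adult liver and 161 in fetal liver. Bub1, of the same list, was not called, with 1.70 in bone marrow, 1.51 in adult liver and 1.09 in fetal liver. The summed signals of the erythroid, neutrophil, B-lineage and dividing-cell lists were lower in adult liver than in both other tissues, as most histone genes were. For the B-lineage list the livers were close, at 1.44 and 1.70, and 0 of the 4 genes compared between them were called. The hepatocyte list went the opposite way between the livers. The part of these cells in the histone differences was not tested.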

How the data were processed

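Total RNA of 3 tissues was labelled with Cy3 and hybridised to 1 array each. The deposited intensity of a spot is linear, with background subtracted and no normalization across arrays, per the file headers. The submitters' processing notes name Agilent Feature Extraction 10.5.1.1. The series-wide table was not used here. Intensities were divided by each array's 75th percentile over gene spots (Python 3.11.15, pandas 2.3.3, numpy 2.4.6), without control spots and outlier spots (80, 75 and 71 gene spots for bone marrow, adult liver and fetal liver). Repeat spots of a probe had a median SD of 0.055, 0.070 and 0.066 on the log2 scale. This is technical spread of 1 array, not spread between animals. The error that the processing software estimates for a member's signal had a median of 10.0%, which was also its lowest value. That estimate is not a measured spread. No spot was saturated.

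Each gene took the probe passing the background flag on the most arrays, and on a tie the brightest. Genes were named through accession or symbol in a RefSeq table, which left 8489 probes without a name. Probe positions are on mm9 and promoters on GRCm38.p6, and these builds were not mixed. For the 1 member with several promoters in the table, 1 was used.

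The members, lists and rules were chosen with earlier results of these data known. Named with their signals were the variant and germ cell members above background, in each family the 4 genes of highest mean signal and those at either end of each comparison, and of each other list the 3 genes furthest apart. The rest of the replication-dependent members, Mcm10, Hira, Mki67 and Alb were added after their values were seen. The alternatives were median, quantile and spike-in scaling, normexp background correction (limma 3.58.1 in R 4.3.3), the mean over probes, 2 other filters on dim probes and a 2-fold threshold. The calculation of the differences was checked on simulated signals, which is no test of the measured differences.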

Additional observations from a re-analysis of the deposited data

How the results depend on the processing

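The scaling of the arrays mattered most. Scaling to 7 spike-in probes moved every gene by 2.37 in bone marrow over fetal liver, by -0.53 in adult liver over fetal liver and by 2.90 in bone marrow over adult liver (log2), and scaling to the median by 0.42, 0.05 and 0.37; the cause was not tested. With spike-ins the medians of all genes were 2.16, -0.55 and 2.79 in these comparisons. Between bone marrow and fetal liver, 26 of 45 histone genes were then higher (55.8% of all genes) and 0 lower (2.13%), with medians of 2.12 for replication-dependent genes and 2.40 for variants. In adult liver over fetal liver 0 were higher (10.1%). Between bone marrow and adult liver 41 of 45 were higher (67.8% of all genes) and 0 lower (5.68%), with medians of 5.39 and 4.0, and Hist1h2bc turned to 0.42. Over the 3 comparisons the calls, higher and lower together, came to 31 for histone mRNA processing and 51 for chaperones. At the main scaling they came to 14 and 25, with 16 processing and 26 or 27 chaperone genes compared in each. Of all genes, 8.30% were higher and 9.33% lower at the main scaling in bone marrow over fetal liver. The shares were 14.1% and 12.1% in adult liver over fetal liver, and 15.0% and 18.8% in bone marrow over adult liver. With spike-ins 55.8% of all genes were called higher in bone marrow over fetal liver, and 67.8% in bone marrow over adult liver. In adult liver over fetal liver 18.2% of all genes were then lower. In bone marrow over fetal liver, median scaling, quantile normalization and normexp each gave 2 calls, 1 of them higher, where the main setting gave 1 call, lower. Quantile normalization left 0 higher in adult liver over fetal liver and a replication-dependent median of 3.47 in bone marrow over adult liver. At 2-fold, 9 histone genes were called in bone marrow over fetal liver, 2 of 46 higher and 7 lower. The shares of all genes were 17.0% and 25.1%. In adult liver over fetal liver 2 of 44 were higher (26.8% of all genes). In bone marrow over adult liver 4 of 44 were lower (32.6% of all genes). Processing and chaperone calls over the 3 comparisons were 25 and 43 at 2-fold, with 16 processing and 26 or 27 chaperone genes compared in each. From 17.0% to 32.6% of all genes were called at 2-fold in each direction of each comparison. These 2 counts therefore do not set the lists apart from all genes. The count of histone genes lower in adult than in fetal liver, and the medians of both classes there, moved by less than 1.5 times under all 8 alternatives. Among single genes, H2afz and Hist4h4 lost their calls and H2afj that in bone marrow over adult liver with the mean over probes. Hist1h1a, Hist1h2ae and Hist1h3a lost that in bone marrow over adult liver with normexp, and H2afy3 (bone marrow over fetal liver) and Hist1h2bc (adult over fetal liver) with spike-ins. No paired analysis was possible because each tissue has 1 array. Signals near background limit the bounds in adult liver, whose array had the fewest spots above it.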
